A study of Mus musculus with 9 samples.

Results

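The citric acid cycle and the steps that feed pyruvate into it were followed across adipocyte differentiation and loss of PPAR gamma in 3T3-L1 cells. The 30 genes were chosen by function, with earlier results of these data known. They cover the mitochondrial pyruvate carrier and the pyruvate dehydrogenase complex with its kinases and phosphatases. They also cover the dehydrogenases and other enzymes of the cycle, apart from aconitase and succinate dehydrogenase. Enzymes that add or withdraw carbon at oxaloacetate and malate were included too. Of the 30 genes, 29 were measured among the 18193 genes of the arrays. Mpc2 was not analysed here because no probe set in the annotation used names it alone. 3T3-L1, an established mouse line of fibroblast-like cells, is a common culture model of fat cell formation. Total RNA was measured on 9 single-colour oligonucleotide arrays in 3 groups of 3.

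The first group was adipocytes electroporated with siRNA against PPAR gamma (knockdown adipocytes), and the second was adipocytes electroporated with a control siRNA (control adipocytes). The third was undifferentiated preadipocytes. All were the same cell line. Cells had been induced 2 days after confluence with insulin (10 µg/ml), dexamethasone (1 µM) and the phosphodiesterase inhibitor IBMX (0.5 mM), and siRNA was given at day 14, after at least 95% of cells had adipocyte morphology. The labels give 2 or 3 nmol of siRNA without saying which arrays had which amount. How long after electroporation the cells were harvested is not stated there. The labels describe electroporation for adipocytes only, so electroporation and differentiation cannot be told apart in comparisons with them. The 3 samples of a group are called technical replicates by the submitters, and p-values therefore measure only the spread between these samples.

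In the citric acid cycle, acetyl-CoA joins oxaloacetate to form citrate, which is oxidised stepwise back to oxaloacetate with the release of carbon dioxide and the reduction of NAD and FAD. Pyruvate enters the mitochondrion through a carrier and is either decarboxylated to acetyl-CoA by pyruvate dehydrogenase or carboxylated to oxaloacetate by pyruvate carboxylase. Pyruvate dehydrogenase is switched off when its kinases phosphorylate it and switched on again by its phosphatases. In fat cells the cycle also supplies citrate, which leaves the mitochondrion as the carbon source for fatty acid synthesis, and pyruvate carboxylase replaces the oxaloacetate that is lost with it. PPAR gamma is the nuclear receptor that drives adipocyte differentiation.

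Deposited values were log2 probe set levels between 2.41 and 14.59, with array medians of 4.82 to 4.89 and correlations of 0.994 to 0.998 between arrays of a group. Pparg, the siRNA target, had log2 levels of 9.54, 9.58 and 9.64 in knockdown adipocytes, 12.89, 12.82 and 12.65 in control adipocytes and 8.35, 8.20 and 8.12 in preadipocytes. The difference between knockdown and control adipocytes was -3.20 ± 0.09 (adjusted p = 1.27e-09), and the knockdown level stayed 1.36 above that of preadipocytes (adjusted p = 6.98e-07). Over 6 adipocyte markers the mean log2 level of an array was 9.63 to 9.71 in knockdown adipocytes, 12.01 to 12.08 in control adipocytes and 5.61 to 5.71 in preadipocytes. For 7 preadipocyte markers it was 8.33 to 8.89 in knockdown adipocytes, 6.98 to 7.25 in control adipocytes and 10.15 to 10.27 in preadipocytes. Of 6 macrophage markers, 3 were dim, with a mean under the median of all values in every group. The list averaged 4.69 to 4.99 in knockdown adipocytes, 4.59 to 4.65 in control adipocytes and 4.23 to 4.27 in preadipocytes. For endothelial markers (3 of 4 dim) the average was 4.06 to 4.33 in knockdown adipocytes, 4.07 to 4.24 in control adipocytes and 3.86 to 4.07 in preadipocytes. For muscle markers (3 of 5 dim) it was 5.04 to 5.26 in knockdown adipocytes, 5.22 to 5.34 in control adipocytes and 4.53 to 4.64 in preadipocytes. Des among them changed by -0.63 in knockdown against control adipocytes and by 2.41 in control adipocytes against preadipocytes. The other 4 muscle markers did not reach an adjusted p under 0.05 in knockdown against control adipocytes. At that threshold 3 muscle markers rose and 1, Acta1, fell in control adipocytes against preadipocytes. Cd68, a macrophage marker, was 2.29-fold higher in knockdown than in control adipocytes and 5.85-fold higher than in preadipocytes. The other 5 macrophage markers did not reach the threshold in either comparison. The part of other cell types in the results was not tested. In these bulk samples a change in the share of cells of a type and a change in RNA per cell cannot be told apart. The Actb 3' minus 5' difference, a sign of RNA or labelling quality, was 0.56, 0.54 and 1.25 in knockdown adipocytes, 1.30, 0.92 and 0.91 in control adipocytes and 0.23, 0.31 and 0.36 in preadipocytes. It was lower on all preadipocyte arrays than on any adipocyte array, and it overlapped between knockdown and control arrays. Its part in the results was not tested beyond the fits with it as a covariate or without the 2 arrays of highest difference.

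Most genes of the cycle were higher in control adipocytes than in preadipocytes, and most were lower again after PPAR gamma siRNA, with 15 still above the preadipocyte level. In control adipocytes against preadipocytes, 23 of 29 members rose and 2 fell (Idh2 and Pdp1), with a median log2 change of 2.04 against 0.09 over all genes. Of all genes, 27.1% rose and 24.7% fell in that comparison. In knockdown against control adipocytes, 24 members fell and 2 rose (Pdk3 and Pdp1), with a median change of -1.31 against -0.01 over all genes. There, 16.1% of all genes fell and 19.9% rose. In knockdown adipocytes against preadipocytes, 15 members rose and 3 fell (Pdk4, Pdp1 and Me2), with a median of 0.44 against 0.07 over all genes, of which 19.6% rose and 16.9% fell. A change was called at an adjusted p under 0.05 from limma, a linear model with moderated variances, adjusted by Benjamini and Hochberg over all 45037 probe sets. The comparisons share samples pairwise, and their values are given side by side.

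Set against the preadipocyte mean of each gene, the median member stood 0.46, 0.41 and 0.42 higher (log2) on the knockdown arrays and 2.05, 2.04 and 2.00 higher on the control arrays. In this median, though not in every member, the arrays of a group therefore differed by far less than the groups did. All arrays of control adipocytes were above those of preadipocytes for 23 members and below them for 2, as for 34.0% and 27.5% of all genes. In knockdown against control adipocytes, 3 members had all arrays higher and 23 all arrays lower, against 23.4% and 21.0% of all genes. In knockdown adipocytes against preadipocytes these numbers were 20 and 4, against 28.8% and 21.1% of all genes. At a minimum of 2-fold, 23 members were higher and 1 (Pdp1) was lower in control adipocytes than in preadipocytes, where 8.83% of all genes were higher and 10.6% lower by that much. In knockdown against control adipocytes 20 members were lower and 1 (Pdp1) was higher by 2-fold or more, against 4.61% and 5.68% of all genes. Knockdown adipocytes kept 4 members at least 2-fold above preadipocytes, Idh3g, Mdh1, Pdk1 and Pcx, and none at least 2-fold below, against 4.29% and 5.01% of all genes.

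**Figure D1:**
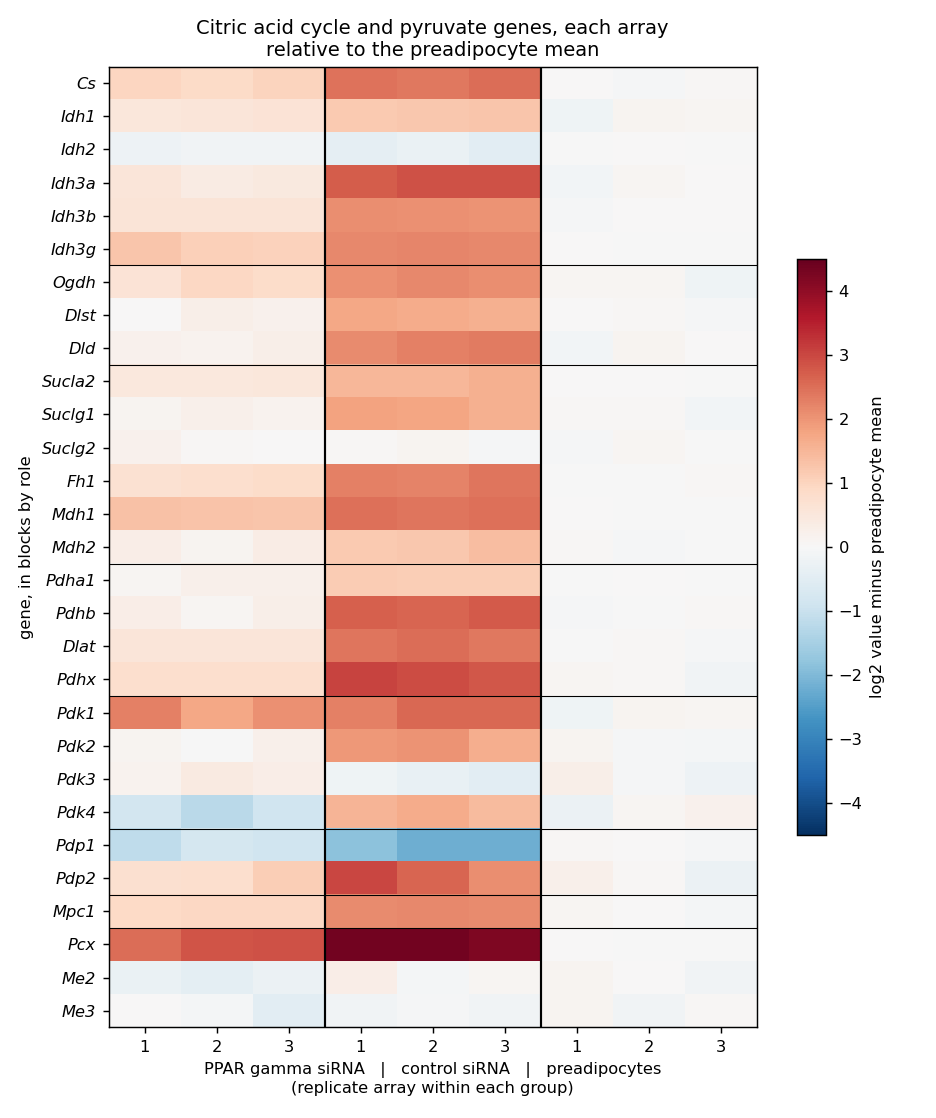
Heat map of the log2 level of each measured member (rows, in blocks by role) minus its preadipocyte mean on each of the 9 arrays (columns), with knockdown arrays left, control arrays in the middle and preadipocyte arrays right. Red is above and blue below the preadipocyte mean. The median member stood 0.41 to 0.46 above the preadipocyte mean on knockdown arrays and 2.00 to 2.05 above it on control arrays, while Idh2 and Pdp1 are blue on all adipocyte arrays.

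**Figure D2:**
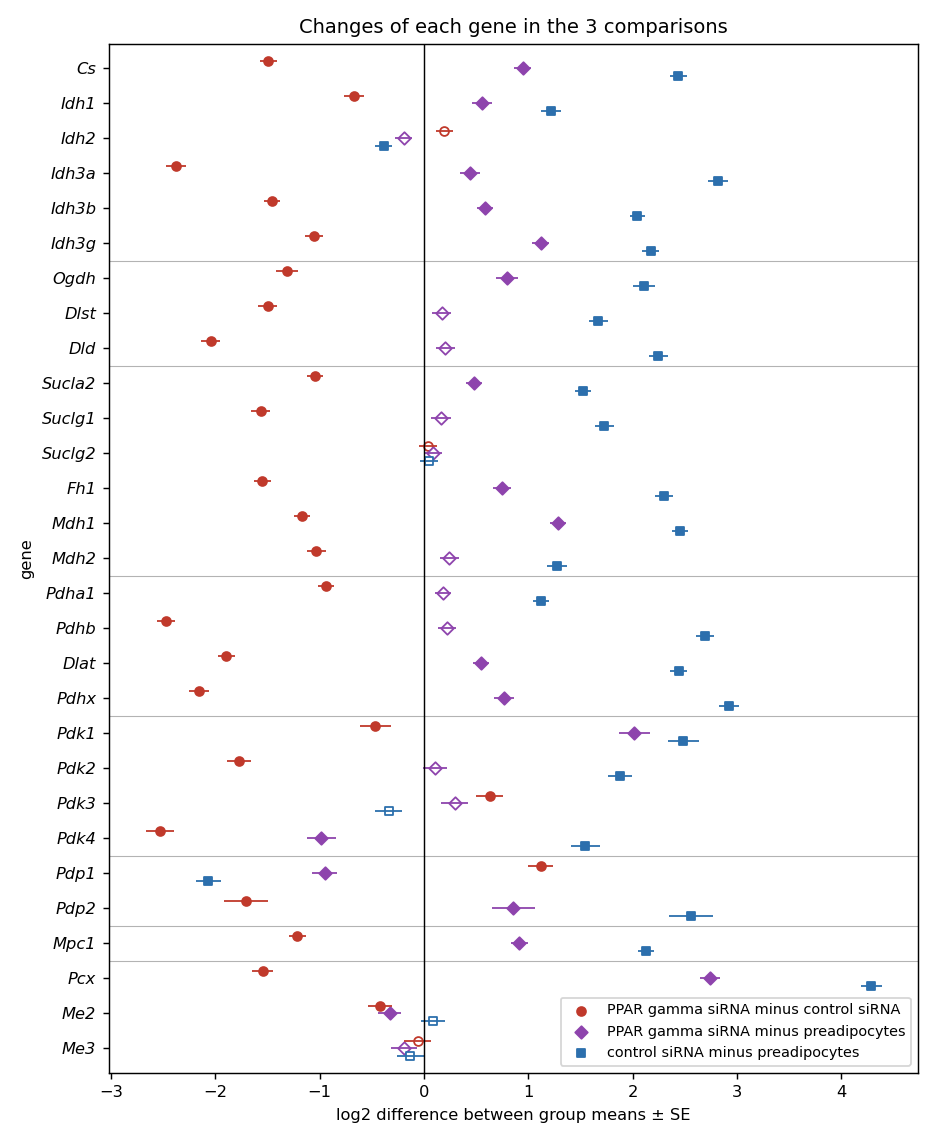
Log2 difference between group means of each member (rows, in blocks by role) in the 3 comparisons, with bars of 1 standard error (3 arrays a group). Filled symbols passed the test and open symbols did not. Of the 29 members, 23 rose in control adipocytes against preadipocytes and 24 fell in knockdown against control adipocytes.

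Promoter sequences are shown for Cs, Pdhb, Pdk1, Pdk4 and Pcx because their changes differ most in kind: the first enzyme of the cycle, the subunit with the largest fall among those of pyruvate dehydrogenase, the kinase that stayed high, the kinase that fell below preadipocytes, and the member with the largest rise. Each is the RefSeq window of 250 bases before to 50 after a gene start in GRCm38.p6, written 5' to 3' on the gene's strand. Capitals mark CCAAT, the box bound by NF-Y, and GGGCGG, the GC box bound by Sp1, on either strand. Pdk1 has 2 windows in the table, of which 1 is shown, and both windows of Pcx are shown.
Cs (chr10:128337477-128337776, plus strand): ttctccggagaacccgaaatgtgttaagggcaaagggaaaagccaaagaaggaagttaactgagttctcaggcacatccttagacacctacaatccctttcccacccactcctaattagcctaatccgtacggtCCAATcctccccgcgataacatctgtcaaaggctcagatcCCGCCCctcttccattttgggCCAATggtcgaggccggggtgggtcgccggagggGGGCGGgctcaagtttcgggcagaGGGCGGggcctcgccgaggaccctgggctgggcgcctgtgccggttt
Pdhb (chr14:8172943-8173242, minus strand): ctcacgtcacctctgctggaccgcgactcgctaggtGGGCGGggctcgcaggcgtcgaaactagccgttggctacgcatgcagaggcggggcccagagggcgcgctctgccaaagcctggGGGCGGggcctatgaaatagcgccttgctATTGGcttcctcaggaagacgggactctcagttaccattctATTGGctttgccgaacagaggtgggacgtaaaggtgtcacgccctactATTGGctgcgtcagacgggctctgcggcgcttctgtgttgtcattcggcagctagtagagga
Pdk1 (chr2:71872974-71873273, plus strand): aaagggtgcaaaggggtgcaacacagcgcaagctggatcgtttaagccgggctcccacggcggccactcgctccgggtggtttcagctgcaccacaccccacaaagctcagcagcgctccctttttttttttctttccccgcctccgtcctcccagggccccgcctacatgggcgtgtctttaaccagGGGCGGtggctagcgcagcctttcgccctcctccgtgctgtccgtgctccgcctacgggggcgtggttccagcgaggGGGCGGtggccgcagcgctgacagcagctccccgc
Pdk4 (chr6:5496229-5496528, minus strand): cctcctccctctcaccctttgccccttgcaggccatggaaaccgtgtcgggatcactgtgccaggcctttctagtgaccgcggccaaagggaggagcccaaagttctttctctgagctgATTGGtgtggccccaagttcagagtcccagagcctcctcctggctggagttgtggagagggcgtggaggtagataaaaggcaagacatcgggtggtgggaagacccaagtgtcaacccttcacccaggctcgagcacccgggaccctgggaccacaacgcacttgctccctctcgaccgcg
Pcx (chr19:4510222-4510521, plus strand): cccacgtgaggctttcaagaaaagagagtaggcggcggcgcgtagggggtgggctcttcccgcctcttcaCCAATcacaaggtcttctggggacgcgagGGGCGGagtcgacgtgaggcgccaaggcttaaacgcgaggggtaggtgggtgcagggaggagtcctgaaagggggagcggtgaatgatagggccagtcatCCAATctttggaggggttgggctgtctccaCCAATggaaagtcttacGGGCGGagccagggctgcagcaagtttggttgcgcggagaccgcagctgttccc
Pcx (chr19:4594069-4594368, plus strand): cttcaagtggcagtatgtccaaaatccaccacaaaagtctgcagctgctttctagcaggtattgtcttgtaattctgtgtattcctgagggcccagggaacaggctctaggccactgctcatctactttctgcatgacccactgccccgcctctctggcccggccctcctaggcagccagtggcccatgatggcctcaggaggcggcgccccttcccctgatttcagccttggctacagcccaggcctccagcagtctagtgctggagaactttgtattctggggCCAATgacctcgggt

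The Cs window held 2 CCAAT and 3 GGGCGG matches, and the Pdhb window 3 and 2. The Pdk1 window held 0 and 2, and the Pdk4 window 1 and 0. Of the Pcx windows, the upstream one held 3 and 2 and the other 1 and 0. Windows were available for 27 of the 30 members. CCAAT was present in at least 1 window of 18 members (66.7%), against 41.1% of the 27025 genes with a window, and GGGCGG in 19 members (70.4%), against 38.2%. Pdhb, Cs and the upstream Pcx window therefore carry both boxes, whereas the windows shown have no GGGCGG for Pdk4 and no CCAAT for Pdk1. Both boxes were also found for Idh2, Suclg2 and Pdk3, which did not show the rise and fall of most members. The median GC content was 61.7% in member windows and 52.7% in all 32851 windows, and the part of base composition in these shares was not tested. CCGGAAG, letters bound by ETS factors, was found in 4 members (14.8%), against 9.93% of genes. AAGGTCA, letters to which nuclear receptors bind, was found in 1 member (Ogdh), against 5.38% of genes. None of 4 further motifs was found in a member: TCAAGGTCA, the site of ERR alpha (0.423% of all windows), AGGTCA repeated after 1 base, the site of PPAR gamma with RXR (0.0396%), GCGCAT directly followed by GCGC, the site of NRF1 (0.971%), and TATAAA, the TATA box (13.6%). All motifs were searched on both strands, and TCAAGGTCA contains AAGGTCA. These matches describe letters in a short window and not binding.

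The pyruvate carrier and the pyruvate dehydrogenase subunits rose together in control adipocytes against preadipocytes and fell together after PPAR gamma siRNA. Mpc1, a subunit of the inner membrane carrier that brings pyruvate into the matrix (chromosome 17, 8283787 to 8297667 in GRCm38.p6, the build of all gene positions given), had log2 levels of 11.02, 11.06 and 11.06 in knockdown adipocytes, 12.24, 12.29 and 12.24 in control adipocytes and 10.22, 10.14 and 10.03 in preadipocytes. No arrays of different groups overlapped, and the knockdown arrays lay between the others. Mpc1 was 2.13 ± 0.08 higher in control adipocytes than in preadipocytes (adjusted p = 1.27e-09) and fell by 1.21 ± 0.08 in knockdown against control adipocytes (adjusted p = 4.3e-07).

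Pdhb, the beta subunit of the decarboxylase (chromosome 14, 8165991 to 8173303), had levels of 10.48, 10.29 and 10.46 in knockdown adipocytes, 12.89, 12.82 and 12.94 in control adipocytes and 10.12, 10.19 and 10.25 in preadipocytes. Knockdown arrays were close to preadipocyte arrays, and both were far below control arrays. The change was 2.69 ± 0.09 in control adipocytes against preadipocytes (adjusted p = 3.64e-10) and -2.47 ± 0.09 in knockdown against control adipocytes (adjusted p = 3.72e-09), a 5.55-fold difference that 91 genes (0.5%) exceeded among falls. Knockdown adipocytes were 0.22 ± 0.09 above preadipocytes, which did not pass the test (adjusted p = 0.0774, 95% interval 0.032 to 0.41, unadjusted for the number of genes). It passed when knockdown array 2 was left out (adjusted p = 0.0417).

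Pdha1, the alpha subunit that the kinases phosphorylate (chromosome X, 160122219 to 160138430), had levels of 11.30, 11.44 and 11.45 in knockdown adipocytes, 12.35, 12.33 and 12.34 in control adipocytes and 11.22, 11.23 and 11.22 in preadipocytes. It was 1.12 ± 0.08 higher in control adipocytes than in preadipocytes (adjusted p = 2.26e-07) and changed by -0.94 ± 0.08 in knockdown against control adipocytes (adjusted p = 2.57e-06). Dlat, the acetyltransferase core of the complex (chromosome 9, 50634633 to 50659780), had levels of 9.94, 9.94 and 9.92 in knockdown adipocytes, 11.80, 11.91 and 11.78 in control adipocytes and 9.36, 9.45 and 9.35 in preadipocytes. Its changes were 2.44 ± 0.08 in control adipocytes against preadipocytes (adjusted p = 3.7e-10) and -1.89 ± 0.08 in knockdown against control adipocytes (adjusted p = 1.36e-08).

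Pdhx, the protein that anchors dihydrolipoamide dehydrogenase to that core (chromosome 2, 103021055 to 103073513), had levels of 8.42, 8.42 and 8.42 in knockdown adipocytes, 10.68, 10.59 and 10.45 in control adipocytes and 7.74, 7.71 and 7.50 in preadipocytes. Its value was the same on the 3 knockdown arrays to 6 decimals, as for 369 probe sets in that group, 202 in control adipocytes and 274 in preadipocytes. The changes of Pdhx were 2.92 ± 0.09 in control adipocytes against preadipocytes (adjusted p = 3.53e-10) and -2.16 ± 0.09 in knockdown against control adipocytes (adjusted p = 1.82e-08). Dlat and Pdhx stayed 0.55 ± 0.08 and 0.77 ± 0.09 above preadipocytes in knockdown adipocytes (adjusted p = 0.000231 and 6.61e-05), whereas Pdha1, at 0.18 ± 0.08, did not pass (adjusted p = 0.113).

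The kinases and phosphatases of pyruvate dehydrogenase did not all move in the same direction: in knockdown against control adipocytes Pdk1, Pdk2, Pdk4 and Pdp2 fell, and Pdk3 and Pdp1 rose. Pdk4, the kinase known for its rise in fasting (chromosome 6, 5483351 to 5496278), had levels of 7.90, 7.54 and 7.83 in knockdown adipocytes, 10.29, 10.41 and 10.16 in control adipocytes and 8.46, 8.83 and 8.93 in preadipocytes. Control arrays were highest and knockdown arrays lowest, below every preadipocyte array. Pdk4 was 1.55 ± 0.14 higher in control adipocytes than in preadipocytes (adjusted p = 1.75e-06) and changed by -2.53 ± 0.14 in knockdown against control adipocytes (adjusted p = 8.52e-08), the largest fall of any member, exceeded by 86 genes (0.473%). Against preadipocytes, the change in knockdown adipocytes was -0.98 ± 0.14 (adjusted p = 0.000169), and Pdk4 was the only member that rose with differentiation and lay below preadipocytes after the knockdown.

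Pdk1, a kinase known as a target of hypoxia-inducible factor (chromosome 2, 71873215 to 71903858), had levels of 10.44, 9.88 and 10.20 in knockdown adipocytes, 10.43, 10.76 and 10.74 in control adipocytes and 7.96, 8.28 and 8.23 in preadipocytes. Knockdown and control arrays overlapped, and all of them were above the preadipocyte arrays. Pdk1 was 2.49 ± 0.15 higher in control adipocytes than in preadipocytes (adjusted p = 5.58e-08) but changed by only -0.47 ± 0.15 in knockdown against control adipocytes (adjusted p = 0.0344). That call was lost when any of 4 arrays was left out, with adjusted p of 0.14 without knockdown array 2, 0.0691 without knockdown array 3, 0.117 without control array 2 and 0.106 without control array 3. Other Pdk1 probe sets above the median of all values gave -0.54 and -0.45 in that comparison (adjusted p = 0.00397 and 0.0117). A dim one gave 0.11, which did not pass (adjusted p = 0.511). Knockdown adipocytes kept Pdk1 2.02 ± 0.15 above preadipocytes (4.05-fold, adjusted p = 1.12e-06).

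Pdk2, a widely expressed kinase (chromosome 11, 95026258 to 95041371), had levels of 6.36, 6.24 and 6.48 in knockdown adipocytes, 8.22, 8.28 and 7.90 in control adipocytes and 6.36, 6.21 and 6.17 in preadipocytes. Knockdown and preadipocyte arrays overlapped, and control arrays stood above both. The changes were 1.88 ± 0.11 in control adipocytes against preadipocytes (adjusted p = 6.9e-08), -1.77 ± 0.11 in knockdown against control adipocytes (adjusted p = 3.48e-07) and 0.11 ± 0.11 in knockdown adipocytes against preadipocytes (adjusted p = 0.528, 95% interval -0.14 to 0.36). Pdk3, the kinase encoded on the X chromosome (chromosome X, 93764616 to 93832150), had levels of 9.49, 9.74 and 9.63 in knockdown adipocytes, 9.12, 8.98 and 8.87 in control adipocytes and 9.60, 9.29 and 9.10 in preadipocytes. Knockdown arrays stood above control arrays, and preadipocyte arrays overlapped with both. Pdk3 was the only kinase to rise in knockdown against control adipocytes, by 0.63 ± 0.13 (adjusted p = 0.00278), and its change of -0.34 ± 0.13 in control adipocytes against preadipocytes did not pass (adjusted p = 0.0536). That difference passed without control array 1 (adjusted p = 0.0437) or preadipocyte array 3 (0.0173), and also without dim probe sets (0.0425), with an intensity trend (0.0364) and with each gene's probe sets averaged (0.0361). Knockdown adipocytes were 0.29 ± 0.13 above preadipocytes, which did not pass (adjusted p = 0.115) except without preadipocyte array 1 (0.0246).

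The phosphatases moved in opposite directions. Pdp1, a calcium-stimulated catalytic subunit (chromosome 4, 11958183 to 11966450), had levels of 7.66, 8.01 and 7.92 in knockdown adipocytes, 6.97, 6.63 and 6.63 in control adipocytes and 8.85, 8.84 and 8.74 in preadipocytes. Preadipocyte arrays were highest, control arrays lowest, and knockdown arrays lay between them without overlap. Pdp1 changed by -2.07 ± 0.12 in control adipocytes against preadipocytes (adjusted p = 4.34e-08), 1.12 ± 0.12 in knockdown against control adipocytes (adjusted p = 2.02e-05) and -0.95 ± 0.12 in knockdown adipocytes against preadipocytes (adjusted p = 8.06e-05). A second probe set of Pdp1 moved the same way by more, with changes of -3.96, 2.04 and -1.92 in the same order. Pdp2, the other catalytic subunit (chromosome 8, 104591472 to 104599026), had levels of 6.29, 6.32 and 6.68 in knockdown adipocytes, 8.57, 8.18 and 7.65 in control adipocytes and 5.80, 5.62 and 5.31 in preadipocytes. It was 2.56 ± 0.21 higher in control adipocytes than in preadipocytes (adjusted p = 8.62e-07), changed by -1.70 ± 0.21 in knockdown against control adipocytes (adjusted p = 5.9e-05) and stayed 0.86 ± 0.21 above preadipocytes after the knockdown (adjusted p = 0.0083), a call that was lost with the Actb difference as a covariate (adjusted p = 0.164).

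Pairs of these regulators, picked with their values known, were also compared as log2 ratios within arrays. Pdp1 over Pdp2 changed by 2.82 in knockdown against control adipocytes and by -4.63 in control adipocytes against preadipocytes. Pdk1 over Pdk4 changed by 2.06 in knockdown against control adipocytes and by 0.94 in control adipocytes against preadipocytes, so that in knockdown adipocytes the ratio was 3.00 above that of preadipocytes. Among 8 pairs of members, the arrays of the groups did not overlap in any ratio named here, and a two-sided exact permutation test gave p = 0.1, the smallest that 3 against 3 arrays allow, and 0.1 to 0.114 after adjustment over the pairs.

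**Figure D3:**
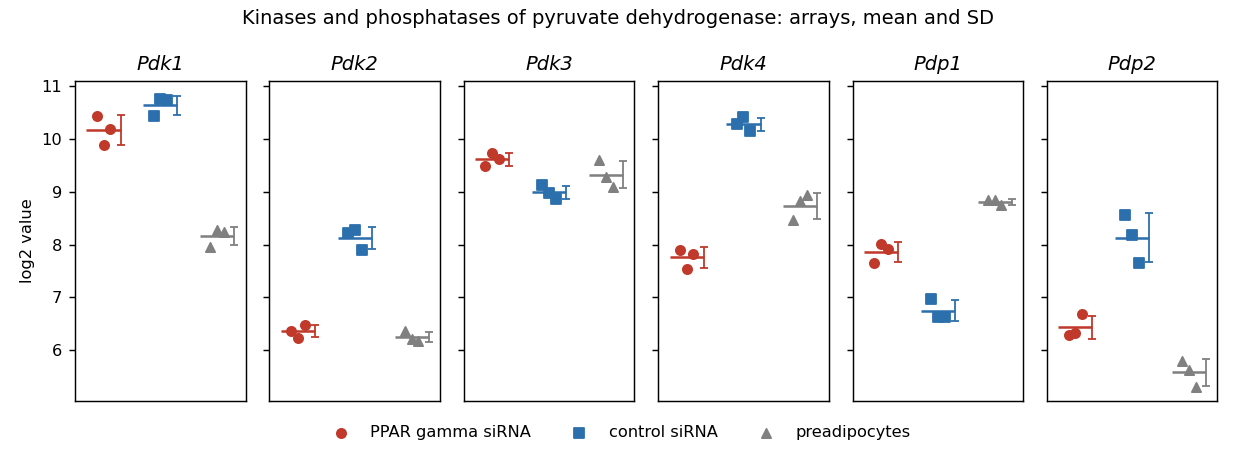
Log2 levels of the pyruvate dehydrogenase kinases and phosphatases on each array (points) with the group mean (line) and SD (bar), for knockdown adipocytes left, control adipocytes in the middle and preadipocytes right. Pdk4 was lowest in knockdown adipocytes, Pdk1 overlapped between the adipocyte groups, and Pdp1 was lowest in control adipocytes.

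Citrate synthase and 4 of 5 isocitrate dehydrogenase genes rose in control adipocytes and fell after PPAR gamma siRNA, and Idh2 was the exception. Cs, which joins acetyl-CoA to oxaloacetate (chromosome 10, 128337727 to 128362482), had levels of 11.17, 11.06 and 11.20 in knockdown adipocytes, 12.64, 12.58 and 12.70 in control adipocytes and 10.22, 10.13 and 10.25 in preadipocytes. The knockdown arrays lay between the other groups. Cs was 2.44 ± 0.08 higher in control adipocytes than in preadipocytes (adjusted p = 5.04e-10), changed by -1.49 ± 0.08 in knockdown against control adipocytes (adjusted p = 1e-07) and stayed 0.94 ± 0.08 above preadipocytes after the knockdown (adjusted p = 4.34e-06).

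The NAD-dependent isocitrate dehydrogenase of the cycle is built from the products of Idh3a, Idh3b and Idh3g. Idh3a, the catalytic subunit (chromosome 9, 54586511 to 54604662), had levels of 10.68, 10.50 and 10.56 in knockdown adipocytes, 12.86, 13.00 and 13.01 in control adipocytes and 10.02, 10.24 and 10.17 in preadipocytes. It changed by 2.82 ± 0.09 in control adipocytes against preadipocytes (adjusted p = 4.43e-10) and by -2.38 ± 0.09 in knockdown against control adipocytes (adjusted p = 8.7e-09), a fall exceeded by 101 genes (0.555%). Knockdown adipocytes stayed 0.44 ± 0.09 above preadipocytes (adjusted p = 0.00349).

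Idh3b (chromosome 2, 130279309 to 130284451) had levels of 11.47, 11.45 and 11.47 in knockdown adipocytes, 12.97, 12.92 and 12.88 in control adipocytes and 10.84, 10.90 and 10.90 in preadipocytes. Idh3g (chromosome X, 73778963 to 73786897), like Idh3b a regulatory subunit, had levels of 11.34, 11.18 and 11.12 in knockdown adipocytes, 12.25, 12.31 and 12.24 in control adipocytes and 10.11, 10.09 and 10.09 in preadipocytes. Each had no overlap between groups. Their changes were -1.46 ± 0.08 and -1.05 ± 0.08 in knockdown against control adipocytes (adjusted p = 6e-08 and 1.74e-06). In control adipocytes against preadipocytes they were 2.04 ± 0.08 and 2.17 ± 0.08 (adjusted p = 9.47e-10 and 1.43e-09), and Idh3g stayed 1.12 ± 0.08 above preadipocytes in knockdown adipocytes (adjusted p = 1.29e-06).

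Idh2, the mitochondrial NADP-dependent enzyme (chromosome 7, 80094845 to 80118608), had levels of 11.13, 11.19 and 11.19 in knockdown adipocytes, 10.95, 11.08 and 10.90 in control adipocytes and 11.35, 11.38 and 11.36 in preadipocytes. Preadipocyte arrays were highest. Idh2 changed by -0.39 ± 0.08 in control adipocytes against preadipocytes (adjusted p = 0.00192), and its difference of 0.19 ± 0.08 between knockdown and control adipocytes did not pass (adjusted p = 0.105). With the Actb difference as a covariate the change in control adipocytes against preadipocytes was -0.40 ± 0.14 and did not pass (adjusted p = 0.0544). The difference between knockdown and control adipocytes passed after renewed quantile normalisation (0.26, adjusted p = 0.0307) and with an intensity trend (adjusted p = 0.0352). Idh1, the cytosolic NADP-dependent enzyme (chromosome 1, 65158616 to 65186479), had levels of 11.94, 11.99 and 12.04 in knockdown adipocytes, 12.63, 12.65 and 12.68 in control adipocytes and 11.23, 11.54 and 11.53 in preadipocytes, and rose by 1.22 ± 0.10 in control adipocytes against preadipocytes (adjusted p = 6.58e-07) and changed by -0.67 ± 0.10 in knockdown against control adipocytes (adjusted p = 0.000218).

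All 3 genes of the 2-oxoglutarate dehydrogenase complex, which makes succinyl-CoA, rose in control adipocytes against preadipocytes and fell after PPAR gamma siRNA. Ogdh, its decarboxylase (chromosome 11, 6291597 to 6359094), had levels of 8.92, 9.24 and 9.14 in knockdown adipocytes, 10.36, 10.47 and 10.40 in control adipocytes and 8.39, 8.40 and 8.12 in preadipocytes. Dlst, its succinyltransferase core (chromosome 12, 85110822 to 85134091), had levels of 9.84, 10.09 and 10.03 in knockdown adipocytes, 11.55, 11.48 and 11.42 in control adipocytes and 9.84, 9.85 and 9.75 in preadipocytes. Dld, the dihydrolipoamide dehydrogenase that it shares with pyruvate dehydrogenase (chromosome 12, 31331562 to 31351471), had levels of 9.55, 9.55 and 9.63 in knockdown adipocytes, 11.51, 11.65 and 11.70 in control adipocytes and 9.25, 9.49 and 9.37 in preadipocytes. Control arrays were above all others for each of the 3 genes, and for Dlst knockdown array 1 fell within the preadipocyte range.

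In knockdown against control adipocytes the changes were -1.31 ± 0.11 for Ogdh, -1.50 ± 0.09 for Dlst and -2.04 ± 0.09 for Dld (adjusted p = 2.53e-06, 1.97e-07 and 2.1e-08). In control adipocytes against preadipocytes they were 2.11 ± 0.11, 1.67 ± 0.09 and 2.25 ± 0.09 (adjusted p = 1.65e-08, 2.44e-08 and 2.21e-09). Ogdh stayed 0.80 ± 0.11 above preadipocytes in knockdown adipocytes (adjusted p = 0.000156), whereas Dlst at 0.17 and Dld at 0.20 did not pass (adjusted p = 0.194 and 0.123).

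Succinyl-CoA synthetase pairs a common alpha subunit with an ADP-forming or a GDP-forming beta subunit. Suclg1 and Sucla2 rose and fell with most of the cycle, and no comparison of Suclg2 passed. Suclg1, the common subunit (chromosome 6, 73248505 to 73276907), had levels of 10.99, 11.11 and 11.03 in knockdown adipocytes, 12.68, 12.66 and 12.48 in control adipocytes and 10.93, 10.95 and 10.76 in preadipocytes. Sucla2, the ADP-forming subunit (chromosome 14, 73552786 to 73596144), had levels of 11.05, 11.06 and 11.09 in knockdown adipocytes, 12.06, 12.07 and 12.19 in control adipocytes and 10.60, 10.60 and 10.55 in preadipocytes. Suclg2, the GDP-forming subunit (chromosome 6, 95473009 to 95718858), had levels of 11.39, 11.26 and 11.24 in knockdown adipocytes, 11.27, 11.33 and 11.17 in control adipocytes and 11.14, 11.28 and 11.21 in preadipocytes. The groups overlapped for Suclg2, while control arrays stood apart for the other 2 genes.

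Suclg1 changed by -1.57 ± 0.09 and Sucla2 by -1.04 ± 0.08 in knockdown against control adipocytes (adjusted p = 1.72e-07 and 1e-06). In control adipocytes against preadipocytes the changes were 1.73 ± 0.09 and 1.52 ± 0.08 (adjusted p = 2.26e-08 and 1.38e-08). For Suclg2 the changes were 0.04 ± 0.09 and 0.05 ± 0.09 in the same comparisons (adjusted p = 0.797 and 0.684), with 95% intervals of -0.15 to 0.23 and -0.14 to 0.24. The log2 ratio of Suclg2 over Sucla2 changed by 1.09 in knockdown against control adipocytes and by -1.48 in control adipocytes against preadipocytes, without overlap of the arrays (exact permutation p = 0.1 for each). The probe sets of Suclg2, Idh1 and Idh3b are of the s type, whose probes can match several transcripts.

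Fumarase and both malate dehydrogenases rose in control adipocytes against preadipocytes and fell after PPAR gamma siRNA. Fh1, which hydrates fumarate to malate (chromosome 1, 175601378 to 175625635), had levels of 10.64, 10.72 and 10.79 in knockdown adipocytes, 12.24, 12.19 and 12.36 in control adipocytes and 9.93, 9.96 and 10.01 in preadipocytes. Mdh2, the mitochondrial enzyme that regenerates oxaloacetate (chromosome 5, 135778649 to 135790386), had levels of 12.52, 12.33 and 12.54 in knockdown adipocytes, 13.41, 13.44 and 13.62 in control adipocytes and 12.27, 12.17 and 12.21 in preadipocytes. Mdh1, the cytosolic enzyme of the malate-aspartate shuttle (chromosome 11, 21556692 to 21571934), had levels of 12.39, 12.35 and 12.30 in knockdown adipocytes, 13.54, 13.47 and 13.54 in control adipocytes and 11.08, 11.06 and 11.06 in preadipocytes. In all 3 genes the knockdown arrays lay between control and preadipocyte arrays.

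The changes in knockdown against control adipocytes were -1.55 ± 0.08 for Fh1, -1.03 ± 0.09 for Mdh2 and -1.17 ± 0.08 for Mdh1 (adjusted p = 8.62e-08, 5.03e-06 and 3.37e-07). In control adipocytes against preadipocytes they were 2.30 ± 0.08, 1.27 ± 0.09 and 2.45 ± 0.08 (adjusted p = 9.01e-10, 3.3e-07 and 2.52e-10). Knockdown adipocytes kept Mdh1 1.28 ± 0.08 above preadipocytes (adjusted p = 1.85e-07), while Mdh2 at 0.24 ± 0.09 did not pass (adjusted p = 0.0724). The Mdh2 difference passed without knockdown array 2 (adjusted p = 0.0407), without dim probe sets (0.0491), with an intensity trend (0.0158) and with the mean of its probe sets (0.41, adjusted p = 0.0011), and its second probe set gave 0.58 (adjusted p = 0.000402). Of Mdh1, 2 other bright probe sets gave smaller changes in the same directions, of -0.44 and -0.53 in knockdown against control adipocytes and 0.97 and 1.12 in control adipocytes against preadipocytes. Their differences of 0.53 and 0.59 between knockdown adipocytes and preadipocytes were under 2-fold.

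Pyruvate carboxylase had the largest rise of any member and, after PPAR gamma siRNA, fell but stayed above preadipocytes. Pcx, the biotin enzyme that makes oxaloacetate from pyruvate (chromosome 19, 4510472 to 4621752), had levels of 10.96, 11.27 and 11.29 in knockdown adipocytes, 12.76, 12.76 and 12.64 in control adipocytes and 8.46, 8.43 and 8.42 in preadipocytes. The groups were far apart and did not overlap. Pcx was 4.29 ± 0.10 higher in control adipocytes than in preadipocytes (19.5-fold, adjusted p = 2.82e-11), a rise exceeded by 114 genes (0.627%). It changed by -1.54 ± 0.10 in knockdown against control adipocytes (adjusted p = 3.34e-07) and stayed 2.74 ± 0.10 above preadipocytes (6.69-fold, adjusted p = 3.72e-09).

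Pyruvate carboxylase is also represented by 4 control probe sets, named for the 5' end, the middle (A and B) and the 3' end of its transcript, which stood outside the tests. In that order, the change in knockdown against control adipocytes was -2.08, -1.91, -1.72 and -1.53, and the change in control adipocytes against preadipocytes was 2.78, 2.93, 3.74 and 4.28. Knockdown adipocytes were 0.69, 1.02, 2.01 and 2.74 above preadipocytes in the same order. All 4 positions thus gave the same directions, and the size of the difference from preadipocytes depended on the position. At the 5' end knockdown array 3 read 6.26 against 8.36 and 8.39 on the other knockdown arrays, and control array 1 read 8.23 against 10.51 and 10.52 on the other control arrays. In both adipocyte groups this was the array whose Actb 3' minus 5' difference was highest. Without them, 23 members were higher and 2 lower in control adipocytes than in preadipocytes, and 2 were higher and 23 lower in knockdown than in control adipocytes. On the arrays left, the Actb difference was 0.56 and 0.54 in knockdown adipocytes, 0.92 and 0.91 in control adipocytes and 0.23 to 0.36 in preadipocytes. It did not overlap between the groups there, so this omission cannot separate RNA quality from group.

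**Figure D4:**
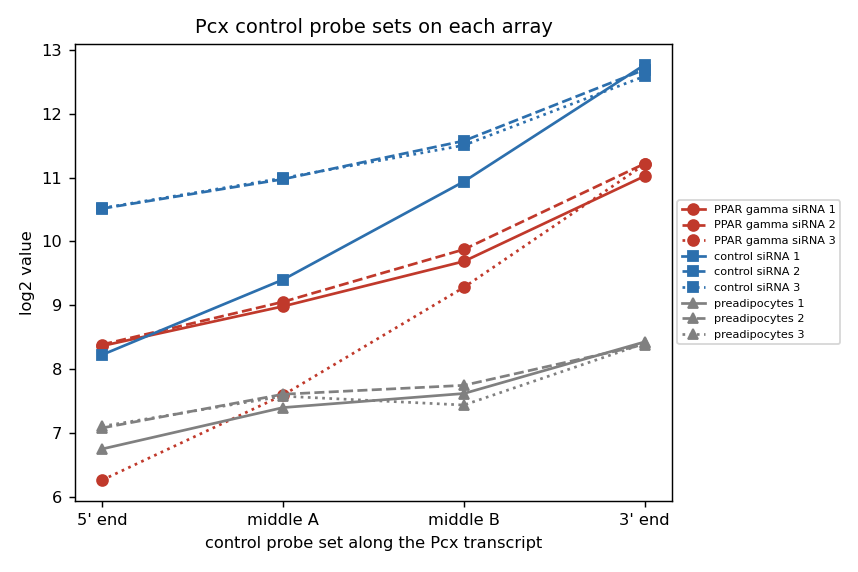
Log2 levels of the 4 pyruvate carboxylase control probe sets on each array, along the transcript, with 1 line per array, red for knockdown adipocytes, blue for control adipocytes and grey for preadipocytes. Knockdown array 3 (6.26) and control array 1 (8.23) were low at the 5' end and not at the 3' end.

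The mitochondrial malic enzymes, which turn malate into pyruvate, gave changes under 0.5 on the log2 scale in the probe sets used. Me2, the NAD-dependent enzyme (chromosome 18, 73764954 to 73815438), had levels of 7.55, 7.41 and 7.56 in knockdown adipocytes, 8.13, 7.74 and 7.92 in control adipocytes and 7.98, 7.85 and 7.69 in preadipocytes. It changed by -0.42 ± 0.11 in knockdown against control adipocytes (adjusted p = 0.0161) and by -0.33 ± 0.11 in knockdown adipocytes against preadipocytes (adjusted p = 0.0484), and by 0.09 ± 0.11 in control adipocytes against preadipocytes (adjusted p = 0.558). The fall against control adipocytes was lost without knockdown array 2 (adjusted p = 0.0643), without control array 1 (0.0606) and without the 2 arrays of highest Actb difference (0.0772). It was also lost with the Actb difference as a covariate (0.0511) and with the mean of all Me2 probe sets, where the change was -0.15 (0.122). Of the other Me2 probe sets, 2 above the median of all values gave -0.04 and -0.02 in that comparison, which did not pass. The same 2 fell by 0.52 and 0.63 in control adipocytes against preadipocytes (adjusted p = 0.000882 and 0.000837) and by 0.56 and 0.65 in knockdown adipocytes against preadipocytes (adjusted p = 0.000878 and 0.00112). For the probe set used, the fall against preadipocytes was lost without any of 6 arrays: knockdown array 1, 2 or 3 (adjusted p = 0.079, 0.145 and 0.0693), control array 3 (0.06) and preadipocyte array 1 or 2 (0.176 and 0.123). Me3, the NADP-dependent enzyme (chromosome 7, 89632284 to 89854359), had levels of 4.84, 4.74 and 4.35 in knockdown adipocytes, 4.68, 4.77 and 4.67 in control adipocytes and 4.96, 4.68 and 4.88 in preadipocytes. Its mean lay under the median of all values in every group, and no comparison of it passed.

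Across the 3 comparisons, 15 members rose in control adipocytes against preadipocytes, fell in knockdown against control adipocytes and were still above preadipocytes in knockdown adipocytes, a pattern that 7.00% of all genes showed. For 7 others, Dlst, Dld, Suclg1, Mdh2, Pdha1, Pdhb and Pdk2, the same rise and fall were called and the remaining difference from preadipocytes did not pass, as in 5.89% of all genes. These kinds differ only in whether that last difference passed. With an intensity trend and robust variances Mdh2, Pdha1 and Pdhb passed too (adjusted p = 0.0158, 0.0311 and 0.0277), and 18 members were higher in knockdown adipocytes than in preadipocytes. Of the pyruvate dehydrogenase genes, Pdhb, Pdha1 and Pdk2 belonged to this second kind, and Dlat, Pdhx, Pdk1 and Pdp2 to the first. The members with several probe sets had 26 further ones above the median of all values, of which 22 gave the same call in knockdown against control adipocytes and 22 in control adipocytes against preadipocytes. In knockdown adipocytes against preadipocytes 20 gave the same call and 6 did not, in Idh1, Idh3a, Idh3b, Ogdh, Mdh2 and Dlat. In each comparison 0 gave the opposite call.

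Genes that work beside the cycle were described from related lists, which were chosen with earlier results of these data known. Beside the counts of each list stand those of all genes. In knockdown against control adipocytes 16.1% of all genes fell and 19.9% rose (median -0.01). In control adipocytes against preadipocytes 27.1% rose and 24.7% fell (median 0.09). Where a gene is given 2 changes, the first is that in knockdown against control adipocytes and the second that in control adipocytes against preadipocytes. Of 9 aconitase and succinate dehydrogenase genes, 8 fell and 1 rose in knockdown against control adipocytes (median -0.95), and 9 rose in control adipocytes against preadipocytes (median 1.61). Sdhb, the iron-sulfur subunit of succinate dehydrogenase, changed by -1.47 and 1.97, and Sdhd, a membrane anchor, by -1.30 in the knockdown. Sdhaf4, an assembly factor, was the 1 that rose (0.31). Aco1, the cytosolic aconitase, rose by 2.01 in control adipocytes against preadipocytes.

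Of 12 genes for lipoate and iron-sulfur clusters, cofactors of the dehydrogenases and of aconitase, 10 fell and 1 rose in the knockdown (median -0.81), and 11 rose and 1 fell in control adipocytes against preadipocytes (median 1.52). Iba57 changed by -1.60 and 2.20 and Bola3 by -1.37 and 2.03, both late factors of cluster assembly. Iscu, the scaffold on which clusters form, went the other way, with 1.33 in knockdown against control adipocytes and -0.51 in control adipocytes against preadipocytes. Among 10 genes of thiamine supply and of related lipoamide complexes, 7 fell in the knockdown (median -0.96) and 7 rose in control adipocytes against preadipocytes (median 1.99). Dbt and Bckdhb, subunits of the branched-chain keto acid dehydrogenase, rose by 4.18 and 3.04 in control adipocytes against preadipocytes, and Bckdhb changed by -2.03 in the knockdown.

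Genes for the export of citrate and the cycling of pyruvate were split. Of 11, 6 fell and 4 rose in the knockdown (median -0.36), and 6 rose and 4 fell in control adipocytes against preadipocytes (median 0.39). Pck1, the cytosolic carboxykinase of glyceroneogenesis, changed by -4.53 and 4.59, and Me1, the cytosolic malic enzyme that makes NADPH, by -1.47 and 2.60. Slc25a12, an aspartate-glutamate carrier, changed by 1.16 and -1.80, and Pck2, the mitochondrial carboxykinase, by 0.52 and -0.93. In knockdown adipocytes Acly, which splits exported citrate, stayed 1.37 and Slc25a10, the dicarboxylate carrier, 1.92 above preadipocytes.

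Among 7 genes of lactate and pyruvate handling, 3 fell in the knockdown (median -0.10) and 5 rose in control adipocytes against preadipocytes (median 0.73). Ldha, the lactate dehydrogenase subunit typical of muscle, changed by -0.91 and 2.41, and Slc16a1, a lactate and pyruvate transporter, by -1.11 in the knockdown. Of 10 genes that bring in carbon from amino acids and propionate, 8 fell and 2 rose in the knockdown (median -0.92), and 8 rose and 2 fell in control adipocytes against preadipocytes (median 2.00). Gpt, the cytosolic alanine aminotransferase, changed by -1.82 and 4.96, while Gpt2, its mitochondrial counterpart, changed by 1.16 and -0.78. Oxct1, which activates ketone bodies, changed by 0.64 and -0.43.

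Of 10 transcriptional regulators of mitochondrial genes, 6 fell and 1 rose in the knockdown (median -0.51), and 5 rose and 2 fell in control adipocytes against preadipocytes (median 0.34). Ppargc1b, a coactivator, changed by -2.93 and 4.65, and Esrra, the nuclear receptor ERR alpha, by -1.81 in the knockdown. Ppargc1a, the related coactivator, rose by 2.73 in control adipocytes against preadipocytes. Hif1a changed by 0.48 and -1.04. The largest adjusted p among the related genes named was 0.0141 in knockdown against control adipocytes and 0.0128 in control adipocytes against preadipocytes.

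**Figure D5:**
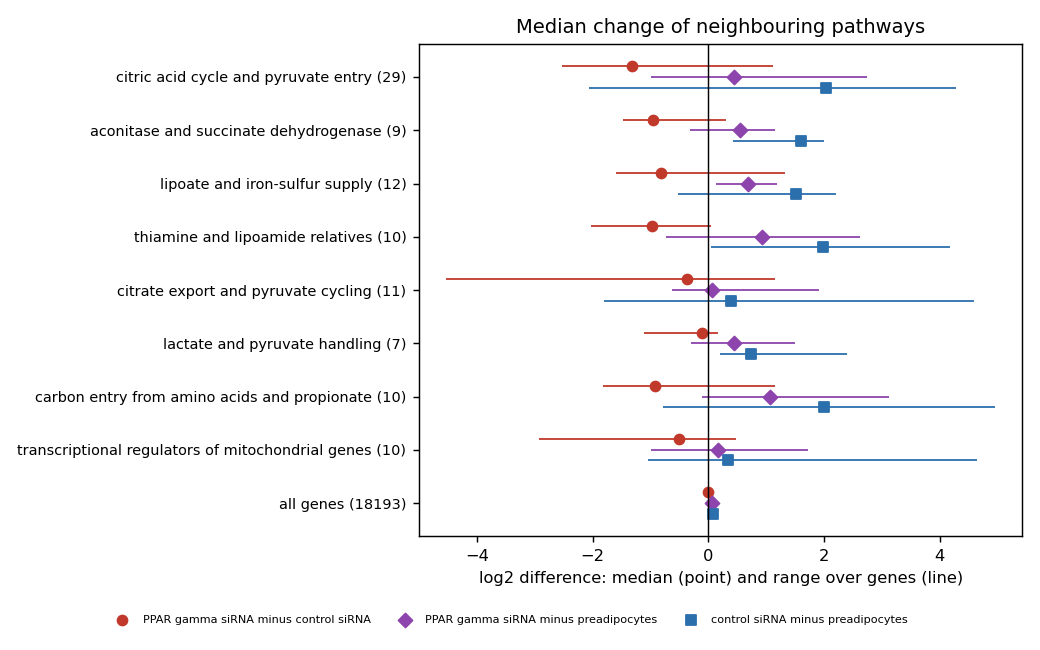
Median log2 change (point) and range over genes (line) of the members, of 7 related lists and, as the median alone, of all genes, in each of the 3 comparisons. The number of genes measured stands in brackets. The member median was -1.31 in knockdown against control adipocytes, and that of citrate export and pyruvate cycling was -0.36, within the widest range of any list shown in that comparison.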

How the data were processed

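The deposited values were log2 probe set levels, 1 array per sample, that the authors had normalised between arrays. The log2 scale was read from the range of the values. Per the submitters' processing notes, MAS5, RMA and affy 1.16.0 were used, with no role or order given, and how background was handled is not stated there. No further scaling was applied. The tests omitted 64 control probe sets. With limma 3.58.1 in R 4.3.3, the 3 group means were fitted jointly over the 9 arrays for the other 45037 probe sets, with moderated variances, two-sided tests and Benjamini-Hochberg adjustment over all of them. A gene was represented by its single-symbol probe set of highest mean, from an array annotation that can be old, and all members measured matched RefSeq by gene ID. The number of arrays limits the precision. The fit was tested on simulated data with independent normal noise, in which far fewer probe sets changed than in these data. That test did not cover differences in RNA quality between groups. Groups came from the sample labels.

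The members, the related lists and the tests were chosen with earlier results of these data known. Named were all 30 members, Pparg, and up to 2 rising and 2 falling called genes of each related list per comparison by size of change, of which the text gives a part. Alternatives were another normalisation, median centring, omission of dim probe sets or of probe set types x and s, the mean of all probe sets, a fit of 2 groups, an intensity trend, a replicate block, a 2-fold minimum, the Actb 3' minus 5' difference as a covariate, and omission of each array or of the 2 arrays of highest Actb difference.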

Additional observations from a re-analysis of the deposited data

How the results depend on the processing

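The fit of 2 groups, the intensity trend, the replicate block and the 2-fold minimum can alter a call but not a change. The same holds where the array left out belongs to neither group compared. Across 20 alternative settings, these included, 1657 of 1734 member values kept direction and call, 46 lost and 16 gained a call, and 15 changed sign. Of these, 1 was called, Me2 in control adipocytes against preadipocytes, at -0.24 (adjusted p = 0.0125) with the mean of all probe sets. The other 14 were called neither before nor after. In control adipocytes against preadipocytes they were Suclg2 at -0.020 with renewed quantile normalisation, -0.018 with its probe sets averaged and -0.083 without types x and s, Me2 at -0.075 with the Actb covariate, -0.011 with the pair of arrays of highest Actb difference omitted and -0.011 without control array 1 (-0.011 to 0.18 over the omissions of each array), and Me3 at 0.25 with the covariate. In knockdown against control adipocytes they were Me3 at 0.075 without that pair and 0.087 without knockdown array 3 (-0.16 to 0.087 over the omissions), and Suclg2 at -0.0021 without control array 3 and -0.0061 without knockdown array 1 (-0.0061 to 0.078). In knockdown adipocytes against preadipocytes they were Dlst at -0.032 with its probe sets averaged, and Pdk2 at -0.011 and Me3 at 0.059 with the covariate. With each gene's probe sets averaged, the member median was -1.09 in knockdown against control adipocytes, 1.55 in control adipocytes against preadipocytes (4 lower) and 0.29 in knockdown adipocytes against preadipocytes. The median in control adipocytes against preadipocytes was 2.08 without dim probe sets, 2.01 without types x and s and 2.00 with the Actb covariate, which left 1 member lower. In knockdown adipocytes against preadipocytes it was 0.37 without types x and s and 0.48 with the covariate. At 2-fold, 1 member was higher in knockdown against control adipocytes, 1 was lower in control adipocytes against preadipocytes, and 4 were higher and 0 lower in knockdown adipocytes against preadipocytes. Leaving out each array gave 22 to 24 members lower, 2 to 2 higher and medians of -1.38 to -1.22 in knockdown against control adipocytes. It gave 23 to 23 higher, 2 to 3 lower and medians of 2.02 to 2.07 in control adipocytes against preadipocytes. In knockdown adipocytes against preadipocytes it gave 15 to 17 higher, 2 to 3 lower and medians of 0.39 to 0.49. Deviations from the group means correlated by -0.19 to 0.17 between same-numbered arrays and by -0.22 to 0.29 between differently numbered ones. With 3 arrays a group these values cannot decide whether the numbers pair the samples. The replicate block gave 2 higher and 23 lower members in knockdown against control adipocytes, 23 and 2 in control adipocytes against preadipocytes and 15 and 3 in knockdown adipocytes against preadipocytes, with medians of -1.31, 2.04 and 0.44. The 1 call lost under it was Pdk1 in knockdown against control adipocytes (adjusted p = 0.0603). Probe sets near the array background, as for Me3, limit what can be detected.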
